A study of Mus musculus with 8 samples.

Results

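Collagen chains are the alpha chains that fold in threes into the triple helices of the extracellular matrix. They were taken as the genes whose symbol is Col, a number, the letter a and a number, which gave 44 of the 24346 genes measured. Their RNA levels were compared between adipose-derived stem cells (ADSCs) of mice grown as a conventional 2D layer and as 3D organotypic cultures. Both groups were WT primary cultures from the gonadal fat of 12-week-old male BALB/c mice, and the 3D cells grew as organoids in Matrigel. The paper grew 3D cultures with various amounts, including none, of media conditioned by Wnt3a- and R-Spondin1-producing cells. It does not state which of these media the sequenced 3D cultures had. Total RNA of 8 cultures was sequenced after removal of ribosomal RNA, in 4 libraries per group; the 2D group came from mice numbered 2, 3, 4 and 5 and the 3D group from those numbered 1, 4, 5 and 7, so that 6 mouse numbers occur and 2 of them are in both groups, though no label states that a shared number is the same animal. The depth was estimated at 16380000 to 17280000 fragments per library in 2D and at 14540000 to 15560000 in 3D.

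Fibrillar collagens such as types I, III and V build the tension-bearing fibrils of connective tissue and are a main product of fibroblasts and other stromal cells. Network-forming collagens make sheets, of which type IV in basement membranes is the best known, and in fat tissue a basement membrane of type IV collagen surrounds every adipocyte. Other members sit on fibril surfaces (the FACIT class), form beaded filaments or anchoring fibrils, cross the cell membrane, or belong to the multiplexins of the basement membrane zone.

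Values are quantile normalized FPKM (fragments scaled to transcript length and library depth), which are per length and can be compared between genes. They are listed in the order of the mice given above. A fold change is the difference of 3D minus 2D on the log2(FPKM + 1) scale with its SE. This scale understates the change of a gene that is low in either group, also where it is high in the other. A gene passed the test at an adjusted p below 0.05 (limma, Benjamini-Hochberg over the 18862 genes tested). The p-values measure only the spread between these libraries, and in bulk samples fewer cells of a type and less RNA per cell cannot be told apart. Values of 3 fragments or fewer are called at the floor, a limit that covers counting error only.

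Before the collagens, the identity of the cultures was checked with marker genes. The sample titles name the cells adipose stem cells, and the paper examines them as mesenchymal stem cells. Of 10 stromal markers, 9 fell in 3D, against 20.3% of all genes tested, and their summed level was 354, 186, 438 and 521 normalized FPKM in the 2D libraries and 8.17, 4.72, 5.57 and 8.29 in the 3D libraries. The most abundant was Thy1 in each 2D library and Twist1 in each 3D library, and Pdgfrb, Dcn and Lum were listed at 0 in all 4 3D libraries. Of 12 epithelial markers, 11 rose in 3D, against 21.2% of all genes, with sums of 31.8, 176, 694 and 31.8 in 2D and 2723, 3123, 3183 and 2905 in 3D, led there by Krt8 or by Krt18, which did not pass (adjusted p = 0.0519), while Esrp1 and Elf3 were listed at 0 in all 4 2D libraries. The summed stromal markers were thus high in each 2D library, whereas in 3D they were low and the epithelial sum high. In the 2D library of mouse 4 the epithelial sum of 694 also lay above the stromal sum of 438.

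The 2D libraries of mice 3 and 4 stood apart from those of mice 2 and 5. The sum of 7 mesothelial markers was 854 in mouse 3 and 2148 in mouse 4, against 1.99 in mouse 2 and 0.569 in mouse 5, and it was 2.57, 34.0, 5.84 and 6.24 in the 3D libraries. In the 2D libraries of mice 3 and 4 the mesothelial sum lay above the stromal sum, which was 186 in mouse 3 and 438 in mouse 4. The most abundant mesothelial marker was Upk1b in mouse 3 and Msln in mouse 4. None of the 7 passed the test between 2D and 3D, where 20.3% of all genes were lower in 3D and 21.2% higher. The 3D library of mouse 1 also differed from the other 3D libraries in several collagen chains given with their values. Endothelial and adipocyte markers were low, while the sum of the macrophage markers reached 42.3 in the 3D library of mouse 4. None of 4 endothelial markers tested passed, against 20.3% lower and 21.2% higher of all genes. Their sums were 0.891, 4.18, 6.42 and 1.01 in 2D, led by Emcn or Kdr, and 0.0442, 0.0251, 0.1 and 0.0957 in 3D, and Tie1 was at 0 in all 8 libraries. Among 5 macrophage markers only Cd68 passed, higher in 3D, against 20.3% lower and 21.2% higher of all genes. The sums were 21.3, 3.54, 12.5 and 2.07 in 2D and 6.25, 42.3, 17.4 and 12.2 in 3D, where Cd68 was the most abundant. Csf1r was at 0.895, 0.486, 1.44 and 0.647 in 2D and at 0.264, 5.97, 7.65 and 3.40 in 3D and did not pass (limma, adjusted p = 0.129). Lyz2 and Adgre1 were at 0 in all 4 3D libraries, and Ptprc was at most 0.0779 in any library. Of the sum of 42.3 in the 3D library of mouse 4, Cd68 alone held 36.3. Of the adipocyte markers Adipoq and Lep were at 0 in all 8 libraries, and Pparg, which fell in 3D, held nearly the whole sum, which was 5.79, 4.33, 8.96 and 7.20 in 2D and 0.0829, 0.0364, 0.413 and 0.479 in 3D. The part of each of these marker lists in the collagen results was not tested.

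The 3D cultures had far less collagen RNA than the 2D cultures, and its makeup differed. Summed over all chains, the level was 4192, 3587, 2975 and 5410.0 normalized FPKM in 2D, a mean of 4041 ± 1039 (SD, n = 4), and 299, 258, 216 and 169 in 3D, a mean of 235 ± 55.7 (SD, n = 4). The lowest 2D library lay well above the highest 3D library, and the ratio of the means was 17.2. Fibrillar chains held 69.6%, 65.6%, 56.5% and 70.8% of the sum in 2D and 0.222%, 0.457%, 0.282% and 0.543% in 3D. In 3D the sum was instead made of basement membrane chains, with 55.1%, 57.3%, 61.9% and 58.9%, and of multiplexins, with 35.3%, 39.3%, 34.3% and 38.1%. Col1a2 was the most abundant chain in every 2D library, with 22.7% to 37.6% of the sum, and Col18a1 in every 3D library, with 34.3% to 39.3%, followed there by Col4a5 and Col4a1. A mean of at least 100 FPKM was reached by 7 chains in 2D and by 0 in 3D, and a mean of at least 10 by 18 chains in 2D and by 5 in 3D.

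**Figure D1:**
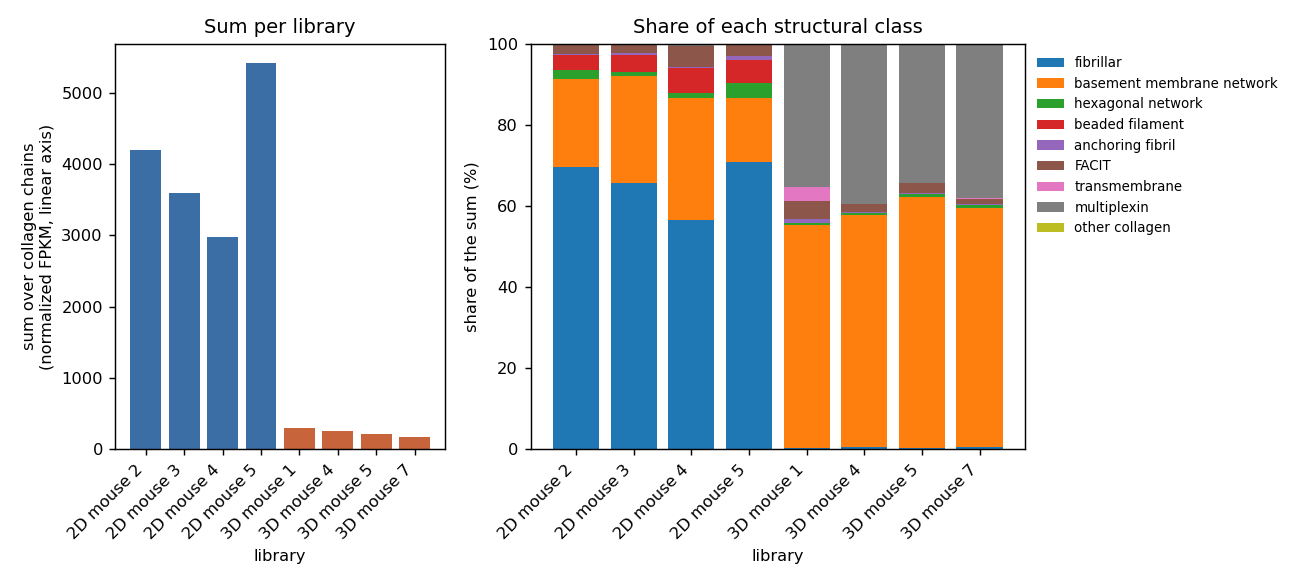
Sum of the normalized FPKM of all collagen chains per library (left, linear axis from 0, 2D in blue and 3D in orange) and the percent of that sum in each structural class (right). The 2D sums lie between 2975 and 5410.0 with mostly fibrillar chains, and the 3D sums between 169 and 299 with mostly basement membrane chains and multiplexins.

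Of the 44 chains, Col13a1 and Col22a1 were at 0 in all 8 libraries, and 42 were tested. Lower in 3D by limma were 22 chains, where 20.3% of all genes tested were lower, and higher in 3D was 1, Col18a1, where 21.2% of all genes were higher. The remaining 19 did not pass. All 4 2D libraries lay above all 4 3D libraries in 24 chains, against 20.9% of all genes, and the reverse held for 1 chain, against 21.6%. The 24 include Col24a1 and Col6a4, in each of which 2 2D libraries and all 4 3D libraries were at the floor. The median fold change of the 42 chains was -0.57, also with Col5a3 and Col6a2, the 2 chains at 0 in every 3D library that passed, set at their bound, and that of all genes was 0.00. Without the 2D libraries of mice 3 and 4 the counts were 21 lower and 1 higher of 41 chains tested, against 22.8% and 19.3% of all genes. With a pseudocount of 0.1 in place of 1, all 23 chains passed in the same direction and the fold change of 19 of them was larger by over 1.5 times, as in Col1a2 at -13.35, Col5a3 at -7.29, Col15a1 at -4.65 and Col27a1 at -3.17; the others were Col4a1, Col4a2, Col11a2 and Col18a1. With the mouse as a block, a fit that leaves 1 residual degree of freedom, limma called 0 chains after adjustment and 0 of all 18862 genes. At an unadjusted p below 0.05 that fit had 16 chains lower and 1 higher, against 12.6% and 15.0% of all genes.

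**Figure D2:**
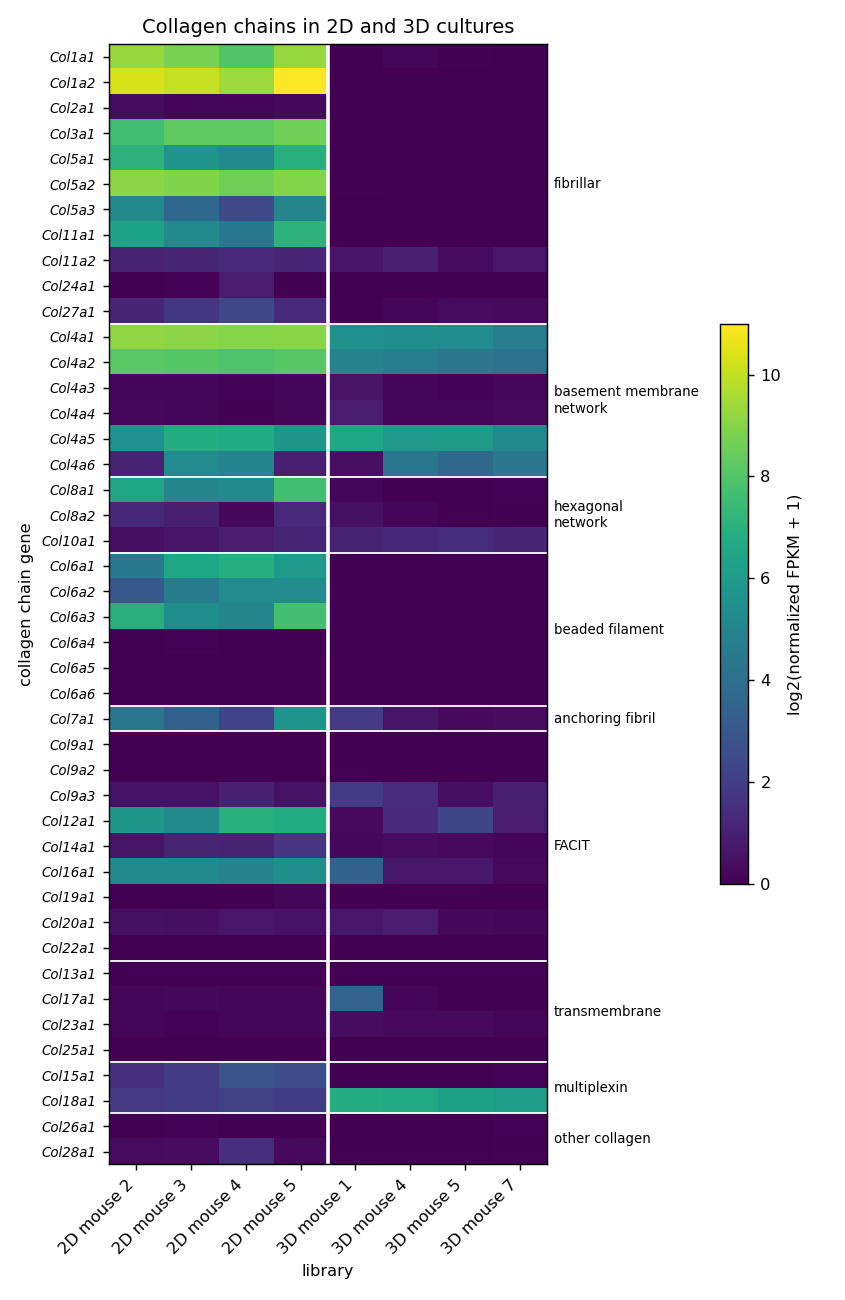
Level of each of the 44 collagen chains (rows, by structural class) in each library (columns) as log2(normalized FPKM + 1), with the white vertical line between 2D and 3D. Fibrillar and type VI chains such as Col1a2, Col3a1 and Col6a3 are bright only in the 4 2D columns, others such as Col2a1 and Col6a5 are dark throughout, Col4a5 is bright in all 8, and Col18a1 is bright only in the 4 3D columns.

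The fibrillar class fell nearly as a whole in 3D. Of its 11 chains, 10 fell and 0 rose, against 20.3% and 21.2% of all genes, and all 11 were separated between the groups, 2D above 3D. The class median was -5.78, or -6.21 with Col5a3 at its bound. The chain that did not pass, Col24a1, was at 0.0319 to 0.798 in 2D and at 0 in the 4 3D libraries. Since 2 of its 2D libraries were at the floor, its separation is not resolved. Type I collagen, the main protein of bone, tendon and dermis, is made of the products of Col1a1 (chr11:94936224-94953042, GRCm38) and Col1a2 (chr6:4504814-4541544). Col1a1 was at 635, 434, 259.5 and 635 FPKM in 2D and at 0.00370, 0.107, 0.0316 and 0.0281 in 3D. Col1a2 was at 1288, 1027, 675 and 2032 in 2D and at 0.0107, 0.00925, 0 and 0.0255 in 3D. Both genes were thus among the most abundant of the chains in each 2D library and at 0.107 or less in each 3D library, with no overlap. In 3D Col1a2 was at the floor in all 4 libraries and Col1a1 in 3 of them, so these levels are not resolved. Fold changes were -8.79 ± 0.28 (SE) for Col1a1 (adjusted p = 6.0e-07) and -10.17 ± 0.30 for Col1a2 (adjusted p = 4.6e-07).

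Type III collagen, encoded by Col3a1, forms thin fibrils together with type I in skin, vessels and fat. Col3a1 was at 197, 304, 307 and 382 FPKM in 2D and at 0.0184, 0, 0 and 0.0106 in 3D, where all 4 libraries were at the floor. Its fold change was -8.17 ± 0.19 (adjusted p = 1.4e-07). Col5a2, a chain of type V collagen, which starts fibrils and sets their width, was at 539.6, 485, 373 and 492 in 2D and at 0.0309, 0, 0.0149 and 0.00974 in 3D. Of its 3D libraries 3 were at the floor. The 2D libraries were close to each other and the groups did not overlap, with a fold change of -8.85 ± 0.12 (adjusted p = 1.4e-08). Col3a1 and Col5a2 lie tail to tail on chromosome 1 with a gap of 24614 nt between them.

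The other type V chains and the related type XI chain spread more among the 2D cultures. Col5a1 was at 135, 51.1, 35.8 and 119 FPKM in 2D and at 0.0156, 0.0107, 0.0138 and 0 in 3D. Col5a3, the least common chain of type V, was at 35.5, 12, 4.39 and 30.8 in 2D and at 0 in each 3D library. Col11a1, whose product joins cartilage fibrils and mixes with type V chains elsewhere, was at 83.1, 35.8, 20.6 and 137 in 2D and at 0, 0, 0 and 0.00921 in 3D. At the floor in 3D were 3 libraries for Col5a1 and all 4 for Col5a3 and Col11a1. In all of these chains mice 2 and 5 were the highest 2D libraries and mouse 4 the lowest, while the lowest 2D library still lay above the highest 3D library. The fold changes were -6.21 ± 0.41 for Col5a1 (adjusted p = 2.5e-05), -4.08 ± 0.58 for Col5a3 (adjusted p = 0.00104) and -5.78 ± 0.54 for Col11a1 (adjusted p = 0.000126), and without the 2D libraries of mice 3 and 4 they were -6.92, -5.06 and -6.69. For Col5a3 the 2D mean was at least 667-fold above the 3D floor on the scale of the deposited values.

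The other fibrillar chains were low in both kinds of culture. Col27a1 was at 1.25 to 4.28 FPKM in 2D and at 0.0564 to 0.265 in 3D, with a fold change of -1.46 ± 0.26 (adjusted p = 0.00301). Col2a1, the main collagen of cartilage, was at 0.125 to 0.291 in 2D and at the floor in 3D, with a fold change of -0.23 ± 0.04 (adjusted p = 0.00385). Col11a2, a type XI chain, was at 1.09 to 1.45 in 2D and at 0.282 to 0.935 in 3D, with a fold change of -0.53 ± 0.13 (adjusted p = 0.0141). It no longer passed without the 2D libraries of mice 3 and 4 (-0.48, adjusted p = 0.0736) or with the values as deposited (-0.28, adjusted p = 0.204).

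**Figure D3:**
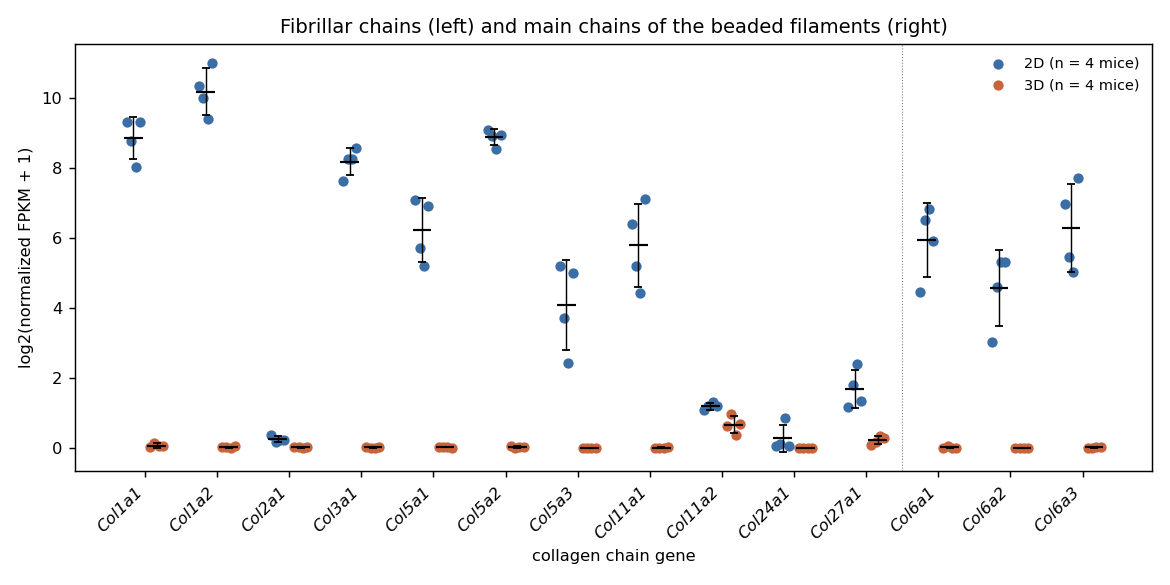
Level of the 11 fibrillar chains and 3 type VI chains as log2(normalized FPKM + 1), 1 point per library, with lines at the mean and bars of 1 SD (n = 4 per group). The 2D points lie above the 3D points in every chain plotted, and in most chains the 3D points lie at or close to 0.

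The promoter of Col1a2 is shown as that of the most abundant chain in 2D. RefSeq promoter windows of 300 bases on GRCm38.p6 matched 35 of the 44 chains (38 windows). They were searched on both strands for the CCAAT box (CCAAT), the TATA box (TATAAA) and the GC box (GGGCGG), and no matches in the windows shown overlap each other. CCAAT was in 34.2% of the chains' windows and in 37.4% of all 32851 windows, TATAAA in 13.2% and 13.6%, and GGGCGG in 60.5% and 35.7%. Capitals mark the motifs on either strand, and a match describes letters only. The Col1a2 window (chr6:4505368-4505667, plus strand, 61.0% GC) held CCAAT 2 times and GGGCGG 2 times.
Col1a2: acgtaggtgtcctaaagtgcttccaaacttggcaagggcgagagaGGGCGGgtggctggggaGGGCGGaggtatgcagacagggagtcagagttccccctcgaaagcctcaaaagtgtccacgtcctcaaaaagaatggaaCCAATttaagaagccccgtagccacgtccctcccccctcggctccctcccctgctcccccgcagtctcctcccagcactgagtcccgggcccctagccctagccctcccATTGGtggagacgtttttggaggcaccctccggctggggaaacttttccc

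Basement membrane chains differed among themselves. Of the 6 type IV chains, 2 fell in 3D (Col4a1 and Col4a2) and 0 rose, against 20.3% and 21.2% of all genes. Type IV collagen of alpha-1 and alpha-2 chains is the common scaffold of basement membranes, and the genes Col4a1 (chr8:11198423-11312826) and Col4a2 (chr8:11312805-11449287) lie head to head with their starts 21 nt apart. Col4a1 was at 576, 535, 510.1 and 527 FPKM in 2D and at 45.2, 43.9, 39.1 and 25.5 in 3D. Col4a2 was at 291, 268, 252 and 276 in 2D and at 28.9, 25.0, 19.8 and 16.7 in 3D. The groups did not overlap in either gene, the 2D libraries were close to each other, and mouse 7 was the lowest 3D library in both. By limma the fold change was -3.80 ± 0.17 for Col4a1 (adjusted p = 3.6e-06) and -3.56 ± 0.16 for Col4a2 (adjusted p = 3.2e-06). Unlike most fibrillar chains, both were still well above the floor in 3D.

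Since the products of Col4a1 and Col4a2 assemble together, their ratio was compared between the cultures. Col4a1 was 1.98, 2.00, 2.02 and 1.91 times as high as Col4a2 in 2D and 1.56, 1.75, 1.98 and 1.53 times in 3D. The 2D ratios were nearly equal, and 3 of the 4 3D ratios lay under all of them. The log2 ratio changed by -0.22 (two-sided exact permutation test, p = 0.0571, adjusted p = 0.114 over 2 pairs tested, where the smallest p possible is 0.0286), and after adjustment 1 pair alone cannot pass at these group sizes. With the values as deposited the change was -0.33 (unadjusted p = 0.0286), and all 4 3D ratios lay under all 4 2D ratios. The window of Col4a2 (chr8:11312555-11312854, plus strand, 73.7% GC) is shown because it also spans the start of Col4a1 on the minus strand. It held CCAAT 1 time and GGGCGG 3 times on either strand.
Col4a2: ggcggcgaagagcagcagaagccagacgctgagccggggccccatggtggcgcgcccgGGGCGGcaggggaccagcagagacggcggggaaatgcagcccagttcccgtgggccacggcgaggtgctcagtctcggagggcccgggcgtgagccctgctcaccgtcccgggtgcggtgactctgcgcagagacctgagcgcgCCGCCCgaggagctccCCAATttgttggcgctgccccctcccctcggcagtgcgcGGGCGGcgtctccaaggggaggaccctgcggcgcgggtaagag

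Col4a5 and Col4a6, a further pair of type IV genes that lie head to head on chromosome X with starts 1309 nt apart, encode chains of the basement membranes of epithelium and smooth muscle. Col4a5 was at 46.2, 111, 104 and 55.6 FPKM in 2D and at 89.2, 59.9, 61.6 and 37.2 in 3D. Col4a6 was at 1.10, 38.3, 30.4 and 0.946 in 2D and at 0.360, 18.8, 12.7 and 20.0 in 3D. The groups overlapped in both genes. In Col4a6 the 2D libraries of mice 2 and 5 and the 3D library of mouse 1 were low and the other 5 high, and in Col4a5 mice 3 and 4 were the highest 2D libraries. Neither gene passed the test, with a fold change of -0.31 ± 0.36 for Col4a5 (adjusted p = 0.512) and 0.16 ± 1.34 for Col4a6 (adjusted p = 0.932). Without the 2D libraries of mice 3 and 4 these were 0.22 ± 0.33 (adjusted p = 0.625) and 2.20 ± 1.19 (adjusted p = 0.199), and without the 3D library of mouse 1 they were -0.51 ± 0.37 (adjusted p = 0.313) and 1.10 ± 1.24 (adjusted p = 0.516). The mesothelial markers were highest in mice 3 and 4, and their part in this was not tested.

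The ratio of Col4a5 to Col4a6 was 42.1, 2.90, 3.42 and 58.7 in 2D and 248, 3.19, 4.84 and 1.87 in 3D. It was thus low in 5 libraries and high in 3, across both groups, and the log2 ratio differed by -0.45 between 3D and 2D (two-sided exact permutation test, p = 0.857, adjusted p = 0.857), or by -1.24 with the values as deposited (p = 0.629). Without the 2D libraries of mice 3 and 4 the difference was -2.44 (exact permutation test, p = 0.400), and without the 3D library of mouse 1 it was -2.03 (p = 0.286 in the same exact test). The promoter windows of the pair are shown because their genes are neighbours whose levels moved apart between libraries. The Col4a5 window (chrX:141475169-141475468, plus strand, 52.7% GC) held CCAAT and GGGCGG 1 time each, and the Col4a6 window (chrX:141474027-141474326, minus strand, 48.3% GC) held GGGCGG 1 time.
Col4a5: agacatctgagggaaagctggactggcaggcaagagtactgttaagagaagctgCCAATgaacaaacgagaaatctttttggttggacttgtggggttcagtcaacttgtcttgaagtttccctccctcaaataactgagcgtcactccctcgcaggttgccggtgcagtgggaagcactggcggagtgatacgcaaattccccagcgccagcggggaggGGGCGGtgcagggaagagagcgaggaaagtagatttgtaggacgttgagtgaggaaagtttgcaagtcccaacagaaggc
Col4a6: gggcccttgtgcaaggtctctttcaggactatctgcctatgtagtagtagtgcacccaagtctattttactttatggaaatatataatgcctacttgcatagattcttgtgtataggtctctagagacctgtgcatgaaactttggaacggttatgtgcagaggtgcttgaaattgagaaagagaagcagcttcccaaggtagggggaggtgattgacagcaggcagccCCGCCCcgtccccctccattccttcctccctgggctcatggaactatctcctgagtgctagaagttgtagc

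Col4a3 and Col4a4, whose products join that of Col4a5 in the filtration barrier of the kidney, lie head to head on chromosome 1 with starts 72 nt apart. Col4a3 was at 0.0792 to 0.141 FPKM in 2D and at 0.475 in mouse 1 and 0.0909 to 0.167 in the other 3D libraries. Col4a4 was at 0.0434 to 0.174 in 2D and at 0.858 in mouse 1 and 0.0978 to 0.215 in the other 3D libraries. Both were highest in the 3D library of mouse 1, where Col4a6 was lowest, and neither passed the test (adjusted p = 0.327 and 0.343).

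The multiplexins moved in opposite directions. These proteins carry interrupted helices with sugar chains attached and sit beside basement membranes, and a fragment of the Col18a1 product is endostatin, which restrains vessel growth. Col18a1 (chr10:77052178-77166548) was at 2.56, 2.93, 3.56 and 3.16 FPKM in 2D and at 106, 101, 73.9 and 64.4 in 3D. Every 3D library lay far above every 2D library, and no other chain passed as higher, except Col10a1 and Col23a1 under alternatives given with their values. Its fold change was 4.40 ± 0.18 (adjusted p = 1.8e-06). It overlaps Slc19a1 on the other strand by 8825 nt, and Slc19a1 was at 6.60, 3.74, 4.60 and 6.97 in 2D and at 4.31, 5.40, 4.80 and 4.14 in 3D, so that its groups overlapped. The strand setting of the counting is not given in the sources used here. Col15a1, the other multiplexin, was at 1.84, 2.90, 6.55 and 5.17 in 2D and at 0.0574, 0.0435, 0.0402 and 0.0624 in 3D. Its groups did not overlap either, in the other direction, with a fold change of -2.18 ± 0.29 (adjusted p = 0.000808).

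Col18a1 is the chain that rose, and RefSeq lists it with more than 1 start, so both of its windows are shown. The upstream start has the window chr10:77166481-77166780 (minus strand, 63.3% GC) with CCAAT 1 time and GGGCGG 3 times, and the downstream start has chr10:77113656-77113955 (minus strand, 59.7% GC) with none of the motifs. The values are per gene and do not separate the starts.
Col18a1 upstream start: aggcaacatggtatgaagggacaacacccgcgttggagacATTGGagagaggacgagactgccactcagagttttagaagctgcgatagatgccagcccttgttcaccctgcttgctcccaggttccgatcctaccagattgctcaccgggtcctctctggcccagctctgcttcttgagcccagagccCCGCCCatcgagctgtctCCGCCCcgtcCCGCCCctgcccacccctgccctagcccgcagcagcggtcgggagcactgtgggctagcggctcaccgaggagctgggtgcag
Col18a1 downstream start: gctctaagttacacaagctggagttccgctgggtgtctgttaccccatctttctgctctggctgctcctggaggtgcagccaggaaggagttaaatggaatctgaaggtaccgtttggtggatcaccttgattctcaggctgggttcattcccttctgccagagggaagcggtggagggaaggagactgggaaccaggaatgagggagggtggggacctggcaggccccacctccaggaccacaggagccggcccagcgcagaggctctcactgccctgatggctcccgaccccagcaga

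**Figure D4:**
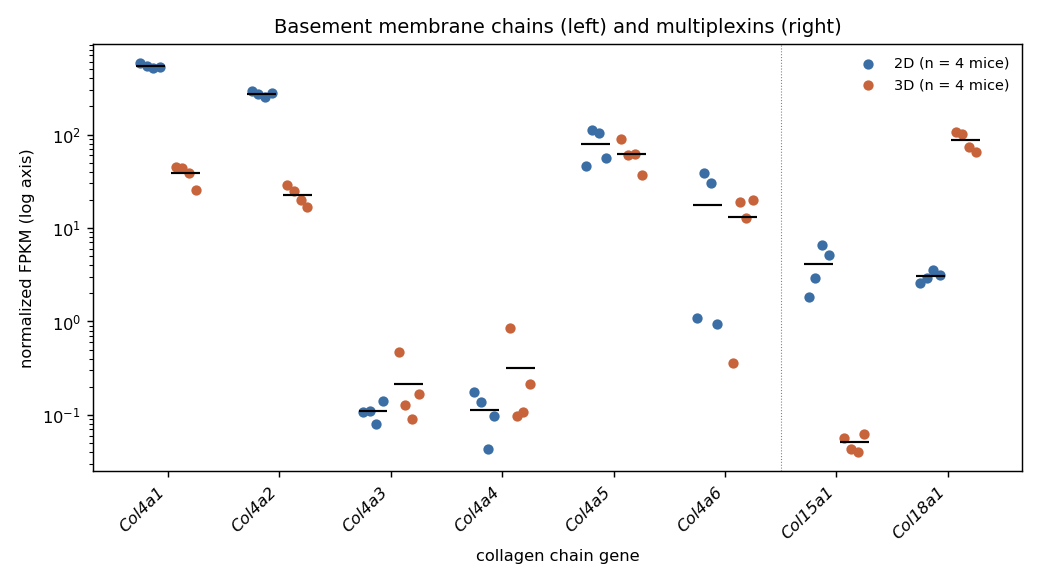
Normalized FPKM on a log axis of the 6 type IV chains and the 2 multiplexins, 1 point per library and a line at the mean of the 4 libraries of a group. Col4a1 and Col4a2 lie lower in 3D, Col4a5 and Col4a6 overlap between the groups, and Col18a1 lies at 64.4 to 106 in 3D against 2.56 to 3.56 in 2D.

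Type VI collagen, which forms beaded filaments around cells and is plentiful in fat tissue, was nearly confined to the 2D cultures among these 8 libraries. Of the 6 chains of the class, 3 fell in 3D and 0 rose, against 20.3% and 21.2% of all genes, with a class median of -2.31, or -2.99 with Col6a2 at its bound. Col6a1 was at 20.9, 90.8, 113 and 59.6 FPKM in 2D and at 0, 0.0293, 0 and 0 in 3D. Col6a2, which lies 85161 nt from Col6a1 on chromosome 10, was at 7.18, 23.3, 39.0 and 38.7 in 2D and at 0 in each 3D library. Col6a3 was at 123, 43.1, 31.6 and 207 in 2D and at 0, 0, 0.0173 and 0.00795 in 3D. The 3D libraries were all at the floor in these chains and far below each 2D library. Among the 2D libraries Col6a1 was highest in mice 3 and 4, and Col6a3 was highest in mice 2 and 5. The fold change was -5.92 ± 0.48 for Col6a1 (adjusted p = 6.2e-05), -4.57 ± 0.49 for Col6a2 (adjusted p = 0.000258) and -6.28 ± 0.56 for Col6a3 (adjusted p = 0.000103), and the 2D mean of Col6a2 was at least 658-fold above the 3D floor. Without the 2D libraries of mice 3 and 4 the fold change was -5.15 for Col6a1 and -7.27 for Col6a3. With the mouse as a block it was -5.32 for Col6a2, which did not pass in that fit (limma, adjusted p = 0.111). Col6a4, Col6a5 and Col6a6 were below 0.1 FPKM in each library.

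The proportions of partner chains differed among the 2D libraries. Col6a1 was 0.170, 2.11, 3.59 and 0.288 times as high as Col6a3, so that Col6a3 exceeded Col6a1 in mice 2 and 5 and fell short of it in mice 3 and 4. Between Col6a1 and Col6a2 the ratio was 2.92, 3.90, 2.91 and 1.54, and between Col1a1 and Col1a2 it was 0.493, 0.422, 0.385 and 0.313. Col5a1 was 0.250, 0.105, 0.0960 and 0.242 times as high as Col5a2, again with mice 2 and 5 above mice 3 and 4. These ratios have no counterpart in 3D, where at least 1 chain of each pair was at the floor in some library, and were not tested.

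Among the chains of hexagonal networks, 2 of 3 fell in 3D and 0 rose, against 20.3% and 21.2% of all genes. Col8a1, a chain of the network under the endothelium of the cornea and in vessel walls, was at 89.2, 31.1, 37.6 and 199 FPKM in 2D and at 0.0956, 0.0193, 0.0542 and 0.0922 in 3D. Mouse 5 was highest in 2D and the groups did not overlap, with a fold change of -6.01 ± 0.54 (adjusted p = 0.000110), or -6.93 without the 2D libraries of mice 3 and 4. Its partner Col8a2 was low, at 1.32, 0.977, 0.165 and 1.50 in 2D and 0.425, 0.131, 0.0180 and 0.0313 in 3D. The groups overlapped in Col8a2, since mouse 4 of the 2D cultures lay under mouse 1 of the 3D cultures, and its fold change was -0.74 ± 0.24 (adjusted p = 0.0419). Leaving out 1 library ended the pass of Col8a2 for 2D mice 2, 3 and 5 and 3D mice 4, 5 and 7 (adjusted p of 0.0836 to 0.102), and so did the deposited values (adjusted p = 0.0801) and a fit with no intensity trend (adjusted p = 0.0501), while without 2D mouse 4 it was -0.99 (adjusted p = 0.00225). In 2D the ratio of Col8a1 to Col8a2 was 67.6, 31.8, 228 and 133, with mouse 4 highest. Col10a1, the collagen of hypertrophic cartilage, was at 0.375 to 1.19 in 2D and 1.12 to 1.74 in 3D and did not pass, with a fold change of 0.47 ± 0.16 (adjusted p = 0.0520). It passed without 2D mouse 5 (0.59, adjusted p = 0.0204), with the values as deposited (0.72, adjusted p = 0.00715) and with no intensity trend (0.47, adjusted p = 0.0471). Col10a1 lies whole within Nt5dc1 on the other strand, which was at 4.31 to 6.17 in 2D and 5.50 to 8.51 in 3D, and reads of the 2 genes cannot be told apart where strand is not used.

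Col7a1, the chain of the anchoring fibrils that fasten epithelium to the tissue under it, was at 19.4, 9.76, 3.59 and 50.8 FPKM in 2D and at 2.61, 0.522, 0.229 and 0.282 in 3D. Mouse 4 was the lowest of the 2D libraries and mouse 1 the highest of the 3D libraries, and the groups did not overlap. Its fold change was -3.14 ± 0.74 (adjusted p = 0.0109), or -2.53 without 2D mouse 5 and -4.21 without the 2D libraries of mice 3 and 4.

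The FACIT class, whose members coat fibrils or bridge them to other matrix, had 3 of 8 tested chains lower in 3D and 0 higher, against 20.3% and 21.2% of all genes. Col12a1, found along type I fibrils in tendon and fascia, was at 56.4, 37.2, 125 and 106 FPKM in 2D and at 0.216, 1.58, 3.85 and 0.854 in 3D. Col16a1, which joins both fibrils and the matrix near basement membranes, was at 36.2, 37.6, 29.4 and 43.5 in 2D and at 9.52, 0.653, 0.640 and 0.203 in 3D. Neither gene overlapped between the groups, and the 3D library of mouse 1 was the highest of its group in Col16a1 and the lowest in Col12a1. The fold change was -5.00 ± 0.52 for Col12a1 (adjusted p = 0.000218) and -3.95 ± 0.64 for Col16a1 (adjusted p = 0.00208), and without the 3D library of mouse 1 that of Col16a1 was -4.71 ± 0.18 (adjusted p = 6.9e-06). The third was Col14a1, at 0.548 to 2.37 in 2D and 0.143 to 0.273 in 3D, with a fold change of -0.88 ± 0.21 (adjusted p = 0.0127) that no longer passed without the 2D libraries of mice 3 and 4 (-0.94, adjusted p = 0.0525). Col9a3, a cartilage chain, was at 0.444 to 1.04 in 2D and 0.381 to 2.76 in 3D and did not pass (adjusted p = 0.211). Col20a1 was at 0.370 to 0.603 in 2D and 0.112 to 0.823 in 3D (adjusted p = 0.787), and Col9a1, Col9a2 and Col19a1 were at most 0.133 in any library.

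Of the 3 transmembrane chains tested, 0 passed in either direction, against 20.3% and 21.2% of all genes, and at an unadjusted p below 0.05 limma with the mouse as a block had 0 as well, against 12.6% and 15.0%. Col17a1, the collagen of hemidesmosomes, by which epithelial cells hold to their basement membrane, was at 0.134, 0.192, 0.159 and 0.140 FPKM in 2D and at 10.1, 0.103, 0.0511 and 0.0613 in 3D. A single 3D library, that of mouse 1, was high, and the other 3D libraries lay under all 2D libraries. The fold change was 0.73 ± 0.75 (adjusted p = 0.462), and without the library of mouse 1 it was -0.10 ± 0.03 (adjusted p = 0.0339). Col23a1 was at 0.0660 to 0.147 in 2D and 0.117 to 0.270 in 3D (adjusted p = 0.0908), and passed without 3D mouse 7 (0.14, adjusted p = 0.0297). Col25a1 was at 0 in 2D and at most 0.0143 in 3D.

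The 2 chains outside these classes did not pass, where 20.3% of all genes were lower and 21.2% higher. Col28a1, a chain found near the basement membranes of peripheral nerve, was at 0.250, 0.296, 1.86 and 0.222 FPKM in 2D and at 0, 0.0413, 0 and 0.0321 in 3D. All 2D libraries lay above all 3D libraries, and mouse 4 was far above the other 2D libraries. The fold change was -0.60 ± 0.26 (adjusted p = 0.109), and it passed without 2D mouse 4 (-0.30 ± 0.03, adjusted p = 0.000680), without the 2D libraries of mice 3 and 4 (-0.28, adjusted p = 0.00131) and with a pseudocount of 0.1 (-2.22, adjusted p = 0.0133). Col26a1 was at most 0.0770 in any library. Of the 42 chains tested, 14 were below 1 FPKM in each of the 8 libraries. The low chains named without values in each library, and Col8a2, Col10a1 and Col15a1, were chosen after their values were seen.

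**Figure D5:**
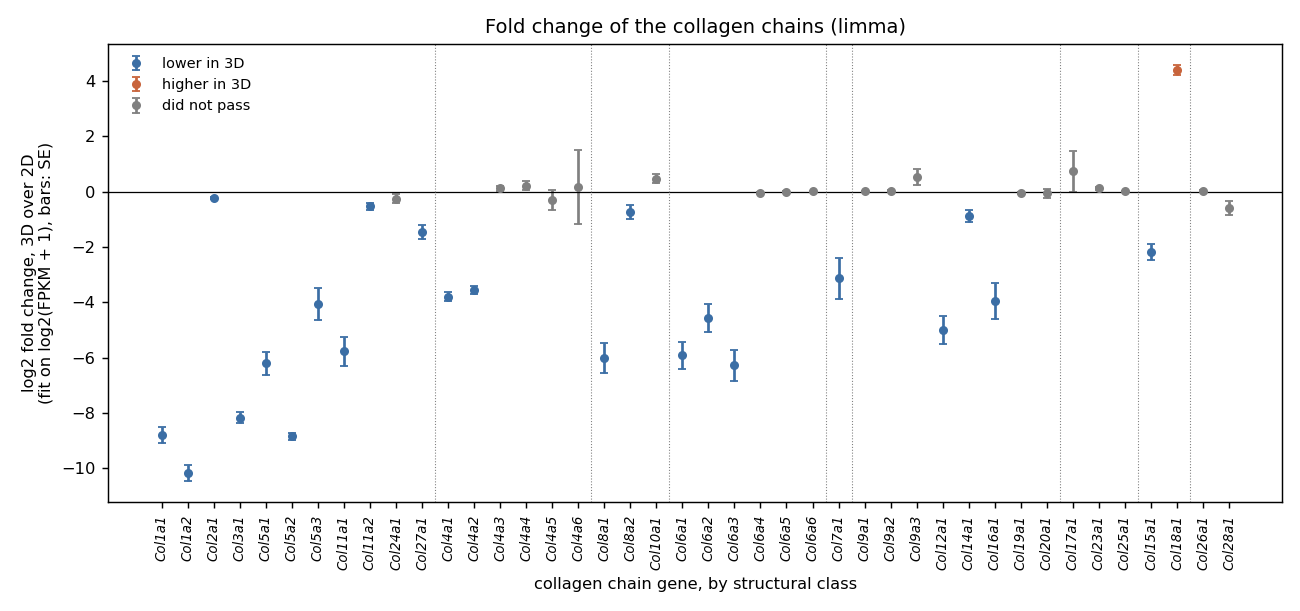
Fold change of the 42 tested chains (3D minus 2D on the log2(FPKM + 1) scale, limma) with bars of 1 SE, by structural class from fibrillar on the left to other collagens on the right. The 22 chains that fell are blue, Col18a1, which rose by 4.40, is orange, and the 19 that did not pass are grey.

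The genes that modify, fold and export procollagen in the endoplasmic reticulum were mostly lower in 3D as well. Of 22 genes, 17 fell and 1 rose, against 20.3% and 21.2% of all genes, with a median of -1.77. Serpinh1, the chaperone HSP47 that binds the collagen triple helix, was at 1739.6, 958, 849 and 1319.7 FPKM in 2D and at 1.19, 0.0270, 0.0351 and 0.0320 in 3D. Fkbp10, a prolyl isomerase that acts on type I procollagen, was at 202, 141, 95.1 and 193 in 2D and at 0.0334, 0, 0.106 and 0.0265 in 3D. The groups lay far apart in both, and mouse 1 was the highest 3D library in Serpinh1. Each of these genes was at the floor in 3 of the 3D libraries. Their fold changes were -9.88 ± 0.32 for Serpinh1 and -7.19 ± 0.23 for Fkbp10 (adjusted p = 6.8e-07 for each). Mia2, of a family that helps large cargo such as procollagen leave the endoplasmic reticulum, rose from 0, 0.0879, 0.0267 and 0.131 in 2D to 1.78, 5.54, 8.78 and 7.73 in 3D, with a fold change of 2.57 ± 0.38 (adjusted p = 0.00123). With the mouse as a block limma called 0 of the 22 genes, as of all genes, and 13 were lower and 1 higher at an unadjusted p below 0.05, against 12.6% and 15.0% of all genes.

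Enzymes that trim procollagen outside the cell and crosslink its fibrils fell in 11 of 13 cases and rose in 0, against 20.3% and 21.2% of all genes, with a median of -4.11. Lox, the lysyl oxidase that starts collagen crosslinks, was at 905, 422, 719 and 888 FPKM in 2D and at 0.0233, 0, 0.0329 and 0.104 in 3D. Loxl2, a relative that also acts on type IV collagen, was at 380.2, 359, 277 and 331 in 2D and at 0.356, 0.432, 0.451 and 0.354 in 3D. Neither gene overlapped between the groups, and Loxl2 varied little within them. Lox was at the floor in 3 of the 3D libraries. In limma the fold change was -9.40 ± 0.23 for Lox (adjusted p = 2.1e-07) and -7.91 ± 0.11 for Loxl2 (adjusted p = 1.4e-08). With the mouse as a block limma called 0 of these 13 genes, as of all genes, and 12 were lower at an unadjusted p below 0.05, against 12.6% of all genes.

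Collagen receptors changed in part. Of 9 tested, 4 fell and 0 rose, against 20.3% and 21.2% of all genes, with a median of -0.36, and Gp6 was at 0 in all 8 libraries. Mrc2, which takes up collagen fragments into the cell, was at 118, 57.9, 92.3 and 121 FPKM in 2D and at 0.199, 0.0588, 0.0374 and 0.0458 in 3D. Ddr2, a kinase that binds fibrillar collagen, was at 46.6, 39.4, 35.7 and 47.2 in 2D and at 0.0158, 0.0409, 0.0420 and 0.0634 in 3D. Itgb1, the shared beta subunit of the collagen-binding integrins, was at 910.1, 752, 737 and 1027 in 2D and at 249, 199, 221 and 179 in 3D. All 3 lay lower in every 3D library, yet Itgb1 was still high there. Their fold changes were -6.45 ± 0.23 for Mrc2 (adjusted p = 1.1e-06), -5.37 ± 0.13 for Ddr2 (adjusted p = 1.9e-07) and -2.01 ± 0.15 for Itgb1 (adjusted p = 5.0e-05). The 5 that did not pass included Ddr1, the relative of Ddr2 typical of epithelium, at 23.6, 81.6, 84.4 and 24.2 in 2D and 42.7, 43.8, 49.1 and 50.9 in 3D (adjusted p = 0.930), which was chosen after its values were seen. With the mouse as a block limma called 0 of the 9 receptors, as of all genes, and 4 were lower at an unadjusted p below 0.05, against 12.6% of all genes.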

How the data were processed

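Total RNA libraries of 4 2D and 4 3D ADSC cultures were analysed, with groups from the labels. The authors prepared strand-specific libraries without ribosomal RNA, mapped paired-end reads with TopHat (mm10 in the submitters' processing notes, the build GRCm38) and deposited FPKM values per gene symbol from Cufflinks, without read counts; the annotation and strand setting are not given in the sources used here. Of 24346 genes, 5484 at 0 in all 8 libraries were left out. The other 18862 were quantile normalized, as the study's methods name, converted to log2(FPKM + 1) and tested with limma 3.58.1 in R 4.3.3 with an intensity trend (Benjamini-Hochberg, threshold 0.05, no fold limit); the step was tested on simulated data. Sums and ratios use the normalized values.

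Depth was estimated from the steps of low values in 875 single-transcript genes of at least 3000 nt; 69.9% to 81.2% of these values lay within 0.15 of a whole number of fragments. The floor is 3 fragments at the gene's length (GENCODE M21), and bounds compare the deposited 2D mean with the highest floor of a 3D library. The numbers 4 and 5 are given to mice of both groups by the labels, which do not state that they are the same animals; the deviations of the libraries of each number from the group means correlated at -0.05 and -0.11 over 12577 genes. Promoters are from RefSeq (GRCm38.p6).

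Named with values in each library were chains with a mean of at least 10 FPKM in either group, the highest chain of each class and risen chains with a 3D mean of at least 1; of each pathway list, the 2 largest falls, the 2 largest rises and the highest mean. The members and lists were chosen with earlier results of these data known. Alternatives were the mouse as a block, a pseudocount of 0.1, a filter at a mean of 1 FPKM, no trend, the deposited values, each library left out in turn, and, chosen after seeing the data, 2D mice 3 and 4 left out and exchanged numbers in the block.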

Additional observations from a re-analysis of the deposited data

Results flagged for a closer look

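The chains with at least 1 library of a group at 1 FPKM or more, 2 chain ratios and the collagen sum were checked, on the log2 scale except for the sum. Among these 44 groups of 4 libraries, in 5 the highest or lowest library lay apart from the other 3 by more than Dixon's critical value allows, where chance picks out about 1 in 20 groups. In the 3D cultures this was the library of mouse 1 each time, with Col4a6 low at 0.360 normalized FPKM and with Col16a1 at 9.52 and Col17a1 at 10.1 both high. In the 2D cultures it was the library of mouse 4, high in Col9a3 at 1.04 and in Col28a1 at 1.86.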

How the results depend on the processing

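The chains counted as lower in 3D numbered 20 with the deposited values, 21 without the intensity trend, 18 of the 24 chains left by a mean of at least 1 FPKM, 23 with a pseudocount of 0.1, 21 to 23 with 1 library left out and 21 without 2D mice 3 and 4. In the same order, 21.6%, 20.2%, 27.5%, 21.5%, 17.1% to 20.6% and 22.8% of all genes were lower. Chains higher in 3D numbered 2 with the deposited values and 2 without the trend (Col10a1 beside Col18a1), and 1 to 2 with 1 library left out (Col10a1 without 2D mouse 5, Col23a1 without 3D mouse 7). Of all genes, 22.7%, 21.3% and 18.1% to 21.7% were higher in these settings. With the mouse as a block, limma called 0 chains lower and 0 higher, 0 genes of each pathway list in either direction, and 0 of all 18862 genes; a block fit in which the numbers 4 and 5 changed places in 3D also called 0, and 19 chains were lower and 1 higher at an unadjusted p below 0.05, against 12.7% and 15.4% of all genes. Lower modification genes numbered 18 with the deposited values, 16 without the trend and 13 to 17 with 1 library left out (13 without 3D mouse 5). Higher modification genes numbered 2 with the deposited values and 1 to 2 with 1 library left out (2 without 3D mouse 1), and higher receptors 0 to 1 (1 without 2D mouse 5, without 3D mouse 7, and without 2D mice 3 and 4). Of 314 fold changes of the named chains over all alternatives, 268 kept direction and side of the threshold; 34 lost the pass, all in block fits, 3 gained it with the same sign (all Col28a1) and 9 changed sign, of which Col17a1 passed without 3D mouse 1. The 9 were Col4a5 at 0.22 without 2D mice 3 and 4, Col4a6, at -0.55 to 1.10 with 1 library left out (-0.51 and -0.55 without 2D mouse 2 or 5, -0.20, -0.03 and -0.24 without 3D mouse 4, 5 or 7), and Col17a1, at -0.10 (without 3D mouse 1) to 1.02 with 1 library left out and at -0.09 in both block fits. The log2 ratio of Col4a5 to Col4a6 ranged from -2.03 to 0.32 with 1 library left out, with 0.14 and 0.30 without 2D mouse 2 or 5 and 0.06 and 0.32 without 3D mouse 4 or 7; it was -1.24 with the deposited values, against -0.45. The cause of these changes was not tested. Depth limits chains near the floor, such as Col1a2 and Col3a1 in 3D, whose levels there are not resolved.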
